A study of Mus musculus with 4 samples.

Results

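The secretory genes described here are 10 mouse genes whose proteins are released into prostatic or seminal fluid: Pbsn, Msmb, Tgm4, Spink1, Sbp, Sbpl, Azgp1, Apof, Ceacam10 and Defb50. They were taken by name, as every probe that the platform annotation assigns to one of these symbols, which gave 1 probe for each gene and 10 of the 24613 probes on the array (15967 named genes). Gene expression had been measured on 4 Illumina bead arrays, 1 for each sample. The tumor lines T23 and T1525 came from prostates of TRAMP mice (strain C57Bl/6, 30 weeks old, carrying SV40 antigens directed to prostate epithelium), with 1 array each and no replicate of either line. The normal samples were prostates of wild-type C57Bl/6 mice aged 18 weeks, on 2 arrays called normal 1 and normal 2, and the labels name neither the lobes taken nor whether separate mice were used. The p-values therefore measure the spread between these 4 arrays, which may be technical. Tumor origin, culture, age and genotype all differ between the lines and the normal tissue and cannot be told apart.

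The mouse prostate is built of anterior, dorsal, lateral and ventral lobes, each lined by luminal epithelial cells that fill the ducts with a lobe-specific mixture of proteins. These proteins coagulate semen, inhibit proteases, bind polyamines and lipids, and act against microbes, and the genes of several of them depend on androgen. Pbsn encodes probasin. The rat probasin promoter drives the TRAMP transgene, so mouse Pbsn is the endogenous counterpart of the gene from which that promoter was taken.

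On each array, between 50.8% and 51.0% of the probes lay above a background threshold of 6.69 on the log2 intensity scale. The deposited columns held nearly the same sorted values, so these shares had to be alike and do not measure how alike the arrays were. Markers bore out the label of the normal tissue and set the lines apart from each other. Of 10 luminal epithelial genes, 9 lay above background on each normal array, 10 in T1525 and 1 in T23. Of 9 basal epithelial genes, 9 lay above it on each normal array, 7 in T1525 and 4 in T23. Of 8 fibroblast genes, 8 lay above it on each normal array, 3 in T1525 and 6 in T23. Krt8, a keratin of luminal cells, read 5.98 in T23 and 14.12 in T1525, against 13.55 in normal 1 and 14.06 in normal 2. T23 was thus without measurable signal for most luminal markers, so these did not mark the line as epithelial, while the summed intensity of 8 fibroblast genes was 39773 in T23 and 1559 in T1525, against 22564 in normal 1 and 46196 in normal 2. The normal tissue also held other material: all 8 measured seminal vesicle genes, 9 smooth muscle genes, 7 skeletal muscle genes and 10 leukocyte genes lay above background on both normal arrays.

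Both tumor lines lacked measurable signal for every one of the 10 secretory genes, while normal prostate gave signal for 9 of them on both arrays. Tgm4, Defb50, Msmb, Spink1, Apof, Pbsn, Azgp1 and Ceacam10 were lower in the lines, by between at least 9.36-fold for Ceacam10 and at least 522-fold for Tgm4 (means of 2 lines and 2 normal arrays). Sbpl was as low in the lines but its normal arrays disagreed, and Sbp was near background everywhere. These 8 of 10 genes passed limma's test of the 2 lines against the 2 normal arrays (adjusted p between 0.00542 and 0.0309), where 5.13% of all 15767 probes tested were lower and 10.8% were called in either direction. The median fitted log2 difference was -6.58 over the 10 genes and 0.19 over all probes tested. Probes were tested if above background on at least 1 array, which for all 10 genes was a normal array. A call of these genes could therefore hardly be other than lower, while the shares include probes tested for signal in a line. The choice of genes was made with earlier results of these data known, so the counts describe the genes and do not test them as a set. Cell lines were set against whole tissue, so the share of secretory cells and the RNA per cell cannot be told apart.

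A fold written as "at least" counts a value not above background as the threshold, and the adjusted p beside it belongs to the fitted difference of the values as measured. Leaving out either normal array removed the calls of all 8 genes and of every other probe: limma then called 0 of 15767 probes, with 2547 probes at an unadjusted p under 0.05 without normal 1 and 2342 without normal 2.

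**Figure D1:**
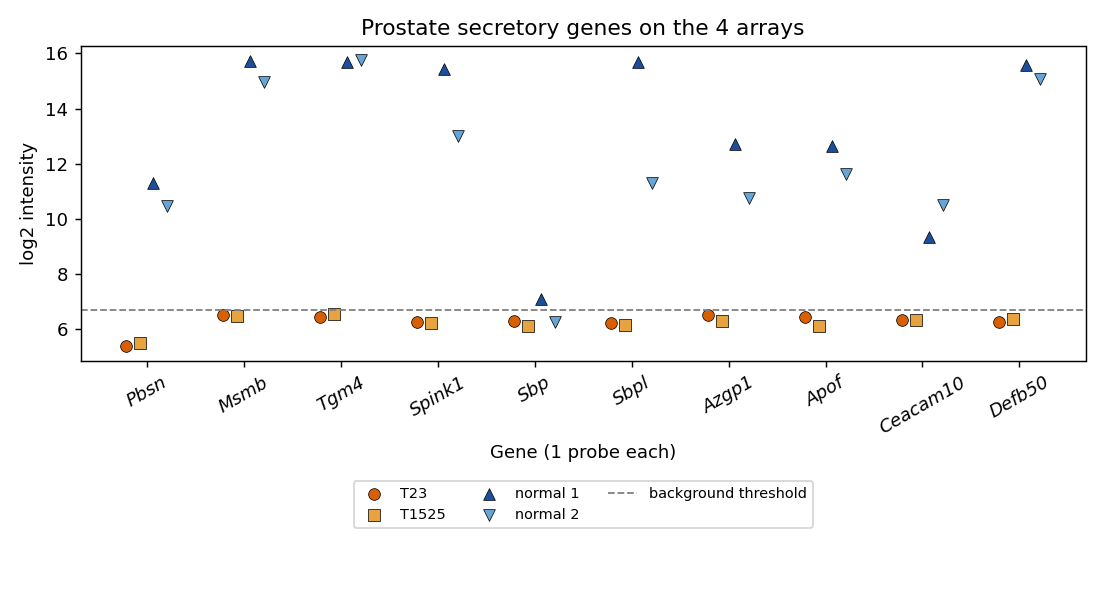
Log2 intensity (vertical axis) of the 10 secretory genes (horizontal axis) on each array, with 1 point per array and the background threshold as a dashed line. All points of T23 and T1525 lie between 5.37 and 6.55, below the threshold of 6.69, and both normal arrays lie above it for every gene except Sbp.

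Pbsn, a lipocalin and the classical androgen-dependent product of the rodent prostate, read 5.37 in T23 and 5.48 in T1525, against 11.31 in normal 1 and 10.45 in normal 2. Both lines lay below the most frequent background value of 6.12, and both normal arrays lay well above it, with no overlap. Pbsn was 10.88 ± 0.60 (SD, n = 2) in normal prostate and at least 18.2-fold lower in both lines together (limma, fitted log2 difference -5.45, SE 0.37, adjusted p = 0.0123).

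Tgm4, the prostate transglutaminase that cross-links proteins of the copulatory plug, read 6.45 in T23 and 6.55 in T1525, against 15.69 in normal 1 and 15.75 in normal 2. The normal pair agreed closely, and both values were near the top of the intensity scale, which ends at 15.79 in this table. Signals this close to the top cannot rise further, so a larger level in normal tissue would not have been seen. Tgm4 had the largest bound of the 10 genes, at least 522-fold lower in both lines together (limma, fitted log2 difference -9.22, SE 0.22, adjusted p = 0.00542).

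Msmb encodes beta-microseminoprotein, a small cysteine-rich protein of prostatic fluid. It read 6.50 in T23 and 6.46 in T1525, against 15.72 in normal 1 and 14.98 in normal 2. The lines were alike and at background, and normal 1 was above normal 2. Msmb was at least 403-fold lower in both lines together (limma, fitted log2 difference -8.87, SE 0.34, adjusted p = 0.00792).

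Defb50 belongs to the beta-defensins, a family of small cationic antimicrobial peptides. It read 6.26 in T23 and 6.38 in T1525, against 15.57 in normal 1 and 15.08 in normal 2, again with both lines at background. It was at least 396-fold lower in both lines together (limma, fitted log2 difference -9.004, SE 0.28, adjusted p = 0.00638).

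Spink1, a Kazal-type trypsin inhibitor that older mouse annotation calls Spink3, read 6.25 in T23 and 6.23 in T1525, against 15.45 in normal 1 and 13.00 in normal 2. The lines were nearly identical, whereas normal 1 was 5.44-fold above normal 2. Spink1 was at least 185-fold lower in both lines together (limma, fitted log2 difference -7.98, SE 0.88, adjusted p = 0.0233). The bound was 431-fold against normal 1 and 79.2-fold against normal 2.

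Sbp encodes spermine-binding protein, an androgen-regulated secretion of the ventral lobe, and Sbpl a related protein from the neighbouring gene. Sbpl read 6.24 in T23 and 6.16 in T1525, against 15.70 in normal 1 and 11.29 in normal 2. The groups did not overlap, but normal 1 read 21.2-fold above normal 2, and since the reading in normal 1 was at the top of the scale a larger gap would not have been seen. With an SD of 3.12 (n = 2) in normal prostate, the fitted difference of -7.30 (SE 1.56) missed the threshold of limma's test (adjusted p = 0.0635). Each normal array alone gave a bound, 515-fold against normal 1 and 24.3-fold against normal 2.

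Sbp read 6.28 in T23 and 6.10 in T1525, against 7.08 in normal 1 and 6.27 in normal 2. It was above background on normal 1 alone, normal 2 lay just below T23, and the fitted difference of -0.48 (SE 0.36) did not pass (limma, adjusted p = 0.415). The Sbp probe thus gave almost no signal in tissue where the Sbpl probe did. The probe sequences were not used here, so whether either probe also binds the transcript of the other gene was not tested.

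Azgp1 encodes zinc-alpha-2-glycoprotein, a secreted protein with the fold of MHC class I heavy chains that is linked to lipid mobilisation. It read 6.52 in T23 and 6.29 in T1525, against 12.71 in normal 1 and 10.77 in normal 2. Both lines were at background and normal 1 was 3.86-fold above normal 2. Azgp1 was at least 33.1-fold lower in both lines together (limma, fitted log2 difference -5.33, SE 0.72, adjusted p = 0.0309), with a bound of 65.0-fold against normal 1 and 16.8-fold against normal 2. With background values raised to the threshold before the fit, its adjusted p was 0.053.

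Apof, apolipoprotein F, is a lipoprotein-associated protein best known from liver and plasma. It read 6.44 in T23 and 6.09 in T1525, against 12.63 in normal 1 and 11.63 in normal 2, so the gap between the groups was several times that between the normal arrays. It was at least 43.3-fold lower in both lines together (limma, fitted log2 difference -5.86, SE 0.43, adjusted p = 0.0135).

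Ceacam10 is a secreted member of the carcinoembryonic antigen family, known in the mouse from seminal vesicle secretion. It read 6.32 in T23 and 6.32 in T1525, against 9.33 in normal 1 and 10.51 in normal 2. The groups did not overlap, and unlike the other genes its higher reading was in normal 2 by a clear margin. It was at least 9.36-fold lower in both lines together (limma, fitted log2 difference -3.60, SE 0.47, adjusted p = 0.0289), with a bound of 6.22-fold against normal 1 and 14.1-fold against normal 2. Its adjusted p was 0.0504 with background values raised to the threshold before the fit.

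**Figure D2:**
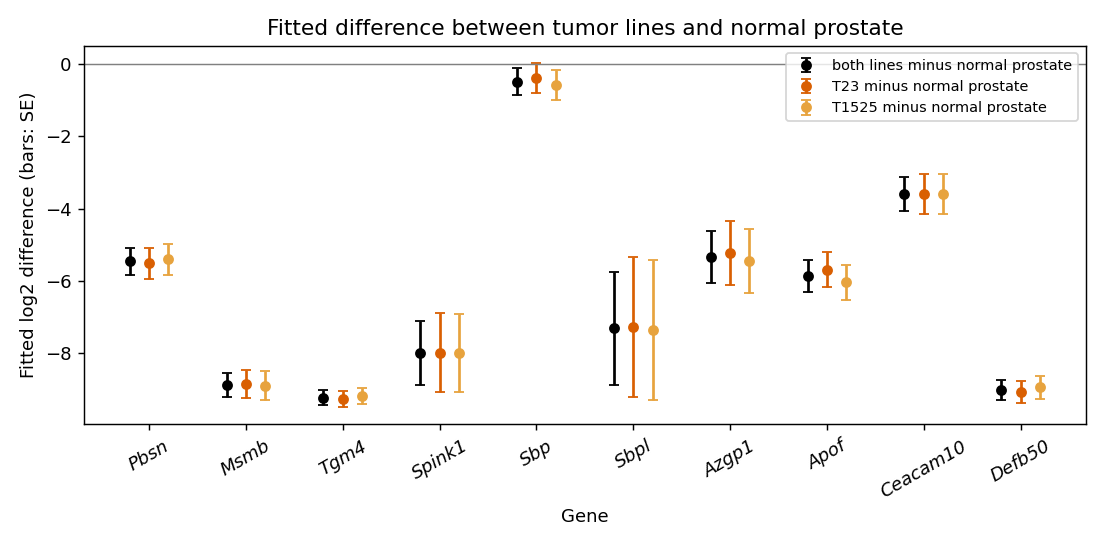
Fitted log2 difference (vertical axis) of each secretory gene (horizontal axis) for both lines together, T23 alone and T1525 alone, each minus normal prostate, with bars of 1 SE. The 3 estimates lie close together for each gene; Sbpl has the widest bars and Sbp lies near 0.

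Each line was also set against the normal pair in a fit of 3 groups, where the line, a single array, is assumed to vary like the normal samples. The same 8 genes passed in T23 (limma, adjusted p between 0.00479 and 0.025) and in T1525 (adjusted p between 0.00427 and 0.0224). Azgp1 missed in T23 with an offset added before log2 (adjusted p = 0.0507), and Sbpl passed in both lines with a trended prior variance (adjusted p = 0.0429 in T23 and 0.0405 in T1525). Among all probes tested, 29.1% were called in T23, 12.8% lower, and 29.8% in T1525, 12.6% lower. Both comparisons share the normal arrays, and only signal there brought the 10 genes into the test. The 9 genes with signal on both normal arrays read above both lines there, an order found for 25.8% of all probes tested, and 6.47% of the probes were, like them, above background on both normal arrays and in neither line.

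All 20 readings of these genes in the lines were at background, so the arrays give no comparison between T23 and T1525 and no fold between the lines is given. Structural genes of luminal cells did differ between the lines in their readings, with 10 above background in T1525 and 1 in T23. Against normal prostate, 9 of these 10 were lower in T23 and none higher (limma, where 14.9% of all 10903 genes were lower and 15.5% higher), while 3 were lower and 1 higher in T1525 (14.8% lower and 16.5% higher). The 3 lower in T1525 included the tight junction genes Cldn3, at 9.14 against 12.65 in normal 1 and 12.12 in normal 2 (adjusted p = 0.01004), and Cldn4, at 11.87 against 13.30 and 13.25 (adjusted p = 0.0212). The keratins Krt8 and Krt18 did not pass in T1525 (adjusted p = 0.476 and 0.18). T1525 thus had signal for luminal keratins and junction genes, some of them below normal tissue, where its secretory readings were at background.

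Promoter sequences show what the secretory genes have at their starts. RefSeq promoters of build GRCm38.p6, which cover 250 bases before and 50 after a transcription start, were matched for 6 of the 10 genes with 9 starts in all. A script searched both strands for the androgen response core motif AGAACA. It also searched for the inverted repeat of that motif, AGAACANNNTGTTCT, which contains it, for the TATA box, spelled TATAAA, and for the forkhead motif, spelled TGTTTAC. The core motif was in 5 of the 9 promoters (4 genes) and in 19.0% of all 32851 promoters of that length. The 2 promoters of Ceacam10 overlap and hold the same 3 core motifs, so the 5 are not all separate stretches. The TATA box was in 3 of the 9 and in 13.6% of all. The full repeat was in none of the 9 and in 0.00913% of all, and the forkhead motif was in none of the 9 and in 3.65% of all. A match describes letters only and says nothing of binding.

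The promoters below are those of probasin, the gene whose rat counterpart drives the transgene, of Tgm4, which had the largest bound, of Sbpl, which differed most between the normal arrays, and of Ceacam10, which holds the most core motifs. Capitals mark the core motif on either strand and the TATA box.
Pbsn, chrX:77853451-77853750, minus strand: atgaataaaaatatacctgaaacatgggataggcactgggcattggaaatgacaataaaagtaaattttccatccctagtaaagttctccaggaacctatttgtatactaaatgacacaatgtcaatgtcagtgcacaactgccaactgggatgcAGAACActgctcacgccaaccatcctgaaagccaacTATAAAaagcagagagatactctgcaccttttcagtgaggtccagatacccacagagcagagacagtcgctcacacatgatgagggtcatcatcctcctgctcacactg
Tgm4, chr9:123034491-123034790, plus strand: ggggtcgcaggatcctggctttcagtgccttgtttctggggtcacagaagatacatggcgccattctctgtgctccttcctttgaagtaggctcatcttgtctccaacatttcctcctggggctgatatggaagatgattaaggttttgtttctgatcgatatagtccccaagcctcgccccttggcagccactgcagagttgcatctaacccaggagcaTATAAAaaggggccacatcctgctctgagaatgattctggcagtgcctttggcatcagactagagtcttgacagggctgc
Sbpl, chr17:23955224-23955523, minus strand: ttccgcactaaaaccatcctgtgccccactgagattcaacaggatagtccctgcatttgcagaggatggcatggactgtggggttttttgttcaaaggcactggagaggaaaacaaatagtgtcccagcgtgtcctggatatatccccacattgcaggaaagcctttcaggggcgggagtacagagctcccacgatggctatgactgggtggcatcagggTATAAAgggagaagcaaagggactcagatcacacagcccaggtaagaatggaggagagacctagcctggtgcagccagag
Ceacam10, chr7:24776917-24777216, plus strand: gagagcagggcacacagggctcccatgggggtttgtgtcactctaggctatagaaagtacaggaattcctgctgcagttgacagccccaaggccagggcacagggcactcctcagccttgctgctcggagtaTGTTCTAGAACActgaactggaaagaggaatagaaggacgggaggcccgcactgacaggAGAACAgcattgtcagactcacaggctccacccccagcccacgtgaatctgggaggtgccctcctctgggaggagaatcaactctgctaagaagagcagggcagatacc

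In the Pbsn promoter the core motif began 95 bases and the TATA box 59 bases before the start. Tgm4 and Sbpl had a TATA box 30 bases before the start and no core motif in the window. Ceacam10 had 3 core motifs and no TATA box. Those beginning 118 and 112 bases before its first start abut each other, the first on the opposite strand, and the other began 59 bases before it. Of the starts not printed, the third of Sbp held 1 core motif 64 bases before the start and that of Azgp1 held 1 beginning 14 bases after it, both on the opposite strand.

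Between the 2 normal arrays the secretory genes also varied, though for 9 of the 10 by less than between the lines and normal prostate. Normal 1 read higher for 8 of the 10 genes, with a median log2 gap of 0.83 over the 10. Scaling the arrays to equal medians left these gaps unchanged, so it could give no other count. The count was also 8 with cyclic loess scaling (median 0.76) and with the median of probes above background on all arrays made equal (0.75). Over all probes tested, 60.0% read higher in normal 1, with a median gap of 0.08 and a median absolute gap of 0.22. No test was made of a single array against another.

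Sbpl (4.41), Spink1 (2.44) and Azgp1 (1.95) had the largest log2 gaps, all higher in normal 1. A gap of either sign larger than that of Sbpl was found for 14 of the 15767 probes tested, and 131 probes had one larger than that of Spink1. Apof followed at 1.01, Pbsn at 0.85, Sbp at 0.81, Msmb at 0.74 and Defb50 at 0.49. Ceacam10 went the other way, with normal 2 2.26-fold above normal 1. Sbpl and Ceacam10 thus differed in opposite directions between the normal samples. The gap of Tgm4 was 0.06, but both its readings lay at the top of the scale, where a difference would not have been seen, and the readings of Sbpl and Msmb in normal 1 lay there too.

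**Figure D3:**
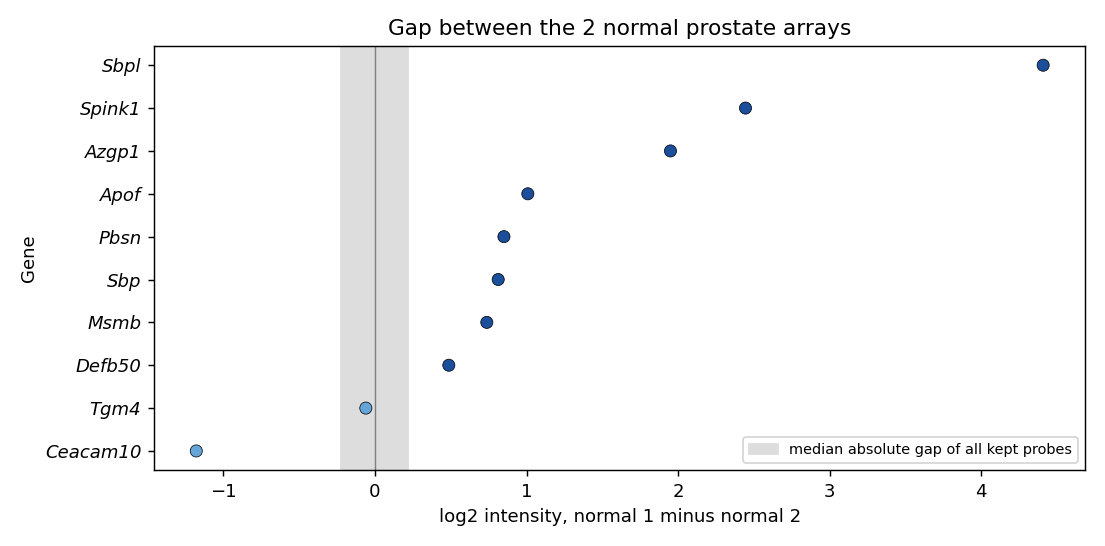
Log2 intensity in normal 1 minus normal 2 (horizontal axis) for each secretory gene (vertical axis), with the grey band spanning the median absolute gap of all probes tested (0.22) on either side of 0. Sbpl lies at 4.41 and Ceacam10 at -1.18, and Tgm4, whose readings are at the top of the scale, lies within the band.

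Other tissue markers also differed between the normal arrays. Leukocyte genes read higher in normal 2 for 9 of 10, with a median log2 gap of -2.11 (normal 1 minus normal 2), and their summed intensity was 23656 in normal 1 and 67966 in normal 2. All 8 fibroblast, 8 endothelial and 9 basal epithelial genes also read higher in normal 2. Smooth muscle differed little, with a median gap of 0.04 and summed intensities of 169875 in normal 1 and 159282 in normal 2. Its brightest genes, Acta2 and Actg2, read between 15.52 and 15.74, near the top of the scale, which limits what the sums could show. Seminal vesicle genes read higher in normal 2 for 7 of 8, by at most 0.68, with summed intensities of 172088 and 185292. Most of these sums came from Svs2, Svs4 and Svs5, which read between 15.58 and 15.78, at the top of the scale. A difference in those genes would not have been seen. Luminal epithelial genes read higher in normal 1 for 6 of 10, with summed intensities of 64793 and 68039. The part that these differences, or the lobes sampled, have in the gaps of the secretory genes was not tested.

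**Figure D4:**
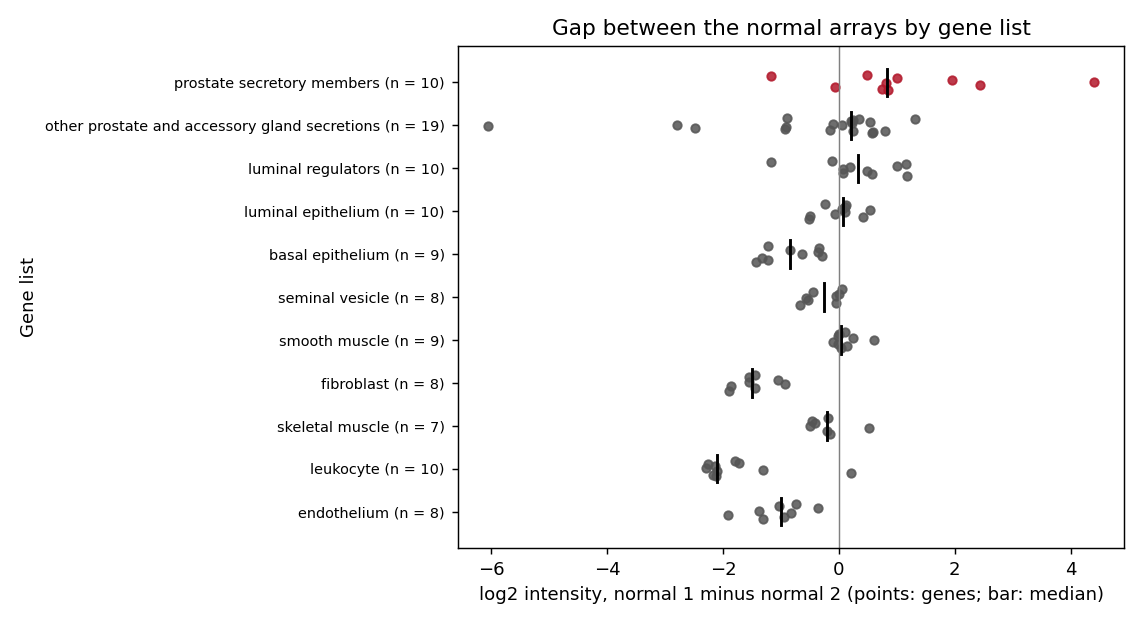
Log2 intensity in normal 1 minus normal 2 (horizontal axis) for the genes of each list (vertical axis), with 1 point per gene and a bar at the median. The secretory genes have a median of 0.83 and reach 4.41, leukocyte genes have a median of -2.11 and fibroblast genes of -1.50, and Ltf, among the other secretions, lies at -6.06.

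Only 2 probes exceeded the excess of Sbpl in normal 1. They measure the secretoglobins Scgb2b2, which read 14.18 in normal 1 and 6.78 in normal 2, and Scgb2b20, which read 10.96 and 6.24, and both were singled out after their values were seen. In all, 14 probes had an excess in normal 1 as large as that of Spink1 or larger, Sbpl and Spink1 included, and 118 had one as large in normal 2. Spink5, another Kazal-type inhibitor, was among the former, at 10.80 in normal 1 and 8.19 in normal 2.

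Other genes of prostate and accessory glands, listed mainly for secretions, also read low in the lines. Of 19 such genes with signal on at least 1 array, 11 fell, none rose and 8 did not pass (limma, lines against normal), where 6.09% of all 10903 genes were lower, and the median fitted difference was -4.35. The largest fall was that of 9530002B09Rik, which read 6.33 in T23 and 6.05 in T1525, against 15.63 in normal 1 and 15.42 in normal 2 (at least 455-fold lower, adjusted p = 0.00542). Pigr, the receptor that carries polymeric immunoglobulins across epithelia, fell 86.1-fold but kept signal in both lines, at 7.66 in T23 and 7.87 in T1525. Clu, the secreted chaperone clusterin, also kept signal, at 8.11 in T23 and 9.84 in T1525 against 14.54 in normal 1 and 15.47 in normal 2 (65.3-fold lower, adjusted p = 0.0261). In contrast to the 10 secretory genes, these 2 genes were therefore lower without being at background.

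The other genes that fell on this list were 9530003J23Rik (at least 316-fold), Psca, prostate stem cell antigen (57.3-fold), Gsdma (at least 33.7-fold), Mmp7, the matrix protease matrilysin (at least 20.2-fold), Wfdc15b (at least 16.3-fold), Cuzd1 (at least 7.51-fold), the lysozyme gene Lyz1 (at least 4.30-fold) and Acpp, prostatic acid phosphatase (at least 2.92-fold). Psca too kept signal in both lines, at 7.13 in T23 and 7.81 in T1525, and Mmp7 and Gsdma kept it in T1525 alone (6.99 each). For 3 of the 11 genes a single array mattered most. The fold of Clu was 35.8 without T23 and 119 without T1525, that of Psca 136 and 24.2 with normal 1 or normal 2 left out, and the bound for Gsdma 21.4 and 53.1 in the same order. The largest fitted difference upward was that of Klk1b21, a kallikrein, at 0.51 (adjusted p = 0.23). Ltf, the iron-binding protein lactoferrin, read 9.40 in normal 1 and 15.46 in normal 2 and did not pass (adjusted p = 0.142). Its gap, 66.7-fold in favour of normal 2, ran opposite to that of Sbpl.

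Of 10 genes listed as regulators of luminal cells or related to them, 4 fell and none rose in the fit of both lines, where 6.09% of all genes were lower. Hoxb13 (adjusted p = 0.0199), Tmprss2 (adjusted p = 0.0304), the zinc finger factor Gata3 (adjusted p = 0.0169) and the ETS factor Spdef (adjusted p = 0.0356) passed limma's test. In the fits of single lines 8 were lower in T23 and none higher, and in T1525 6 were lower and 1 higher. Foxa1, which opens chromatin in luminal cells, read 6.26 in T23 and 10.62 in T1525, against 12.74 in normal 1 and 12.18 in normal 2, and was lower in each line (adjusted p = 0.0056 and 0.0278). Gata2 had the opposite order, at 10.85 in T23 and 7.42 in T1525, against 13.29 and 13.21, and was also lower in each (adjusted p = 0.00968 and 0.00505). Neither passed for both lines together (adjusted p = 0.176 and 0.113), where the lines differed from each other. Hoxb13 and Gata3, like Gata2, read higher in T23 than in T1525. Elf3, an ETS factor of epithelia, read 6.41 in T23 and 11.13 in T1525, against 8.05 in normal 1 and 9.22 in normal 2. It rose in T1525 (log2 difference 2.49, adjusted p = 0.0423) and did not pass in T23 (-2.23, adjusted p = 0.0536), and its difference for both lines together, 0.13 (adjusted p = 0.964), averages these.

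Relatives of the secretory genes were examined by symbol in 5 families, leaving out the 10 genes themselves. Of 67 relatives on the array, 32 had signal on at least 1 array, 6 fell and none rose (limma, lines against normal), where 6.09% of all 10903 genes were lower. In the Spink family, 2 of 5 fell. Spink8 read 6.19 in T23 and 5.97 in T1525, against 13.63 in normal 1 and 13.03 in normal 2 (fitted log2 difference -7.25, SE 0.31, adjusted p = 0.00889), and Spink10 also fell (adjusted p = 0.0253). Spink2 went the other way in 1 line, reading 10.28 in T23 against 6.59 in T1525, 6.50 in normal 1 and 6.72 in normal 2 (adjusted p = 0.397 for both lines, 0.0064 in T23 alone).

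Among 18 beta-defensins with signal, 2 fell. Defb2 read 6.10 in T23 and 6.16 in T1525, against 10.15 in normal 1 and 8.91 in normal 2 (adjusted p = 0.0336), and Defb11 also fell (adjusted p = 0.031). The largest fitted difference upward in the family was that of Defb46, 0.35 (adjusted p = 0.337). Of 3 Ceacam genes, Ceacam1, a cell adhesion receptor, fell, reading 6.23 in T23 and 9.05 in T1525, against 13.51 in normal 1 and 13.46 in normal 2 (adjusted p = 0.045), and Ceacam13 had the largest fitted difference upward at 0.30 (adjusted p = 0.449). Of 2 lipocalins, Lcn2 fell, from 12.52 in normal 1 and 15.69 in normal 2 to 6.10 in T23 and 6.03 in T1525 (adjusted p = 0.0327), and Lcn12 did not pass (adjusted p = 0.165). None of 4 transglutaminases passed for both lines together, but 3 passed in single lines. Tgm2, the tissue transglutaminase, read 9.48 in T23 and 5.78 in T1525, against 13.04 in normal 1 and 13.67 in normal 2. It was lower in T23 (log2 difference -3.87, adjusted p = 0.0095) and in T1525 (-7.57, adjusted p = 0.00505), with an adjusted p of 0.0736 for both together. Tgm3 was higher in T1525 (log2 difference 1.65, adjusted p = 0.016; both lines 0.62, adjusted p = 0.599), and Tgm5 was lower in T23 (adjusted p = 0.0386).

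The measured genes next to the secretory genes on their chromosomes, were taken by RefSeq order in GRCm38.p6. Of 18 such neighbours outside the 10 genes, 10 had signal on at least 1 array, with a median fitted difference of -0.28, and 1 fell and none rose, where 6.09% of all genes were lower. The neighbour that fell was Defb2, next to Defb50. Prkx, beside Pbsn, read 9.07 in T23 and 10.41 in T1525, against 10.50 in normal 1 and 10.39 in normal 2 (limma, adjusted p = 0.403). Oxnad1, beside Msmb, read 11.62, 11.25, 11.39 and 11.19 in the same order (adjusted p = 0.718). Tmem42 and Zdhhc3, on either side of Tgm4, did not pass (adjusted p = 0.213 and 0.163). Those 2 genes kept signal in both lines, at 7.88 and 9.004 in T23 and 9.92 and 9.14 in T1525, where Tgm4 was at background. The neighbours of Spink1 differed more, in opposite directions, and did not pass. Spink5 was at background in both lines, at 6.14 in T23 and 5.95 in T1525 (limma, fitted log2 difference -3.45, adjusted p = 0.0981). Dpysl3 read higher in the lines (limma, fitted log2 difference 2.61, adjusted p = 0.0502).

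The gene most like each secretory gene over the 4 arrays was found by Euclidean distance between log2 readings, with background values raised to the threshold, among 10893 other genes. Tgm4 lay closest to the seminal vesicle gene Svs4 (distance 0.17), and Msmb and Defb50 both lay closest to 9530002B09Rik (0.45 and 0.35). Spink1 and Sbpl shared Wfdc3, a gene of the whey acidic protein family, as nearest at distances of 0.64 and 1.54. Wfdc3 read 6.08 in T23 and 6.41 in T1525, against 14.93 in normal 1 and 12.62 in normal 2. Its log2 excess in normal 1 was 2.31, near that of Spink1 (2.44) and well below that of Sbpl (4.41). No gene lay within a distance of 1 of Sbpl, and 57 lay within it of Pbsn, whose nearest was Mt3, a metallothionein (0.16). Azgp1 was nearest to Agtr1a, an angiotensin receptor (0.46), Apof to Elapor1 (0.21), Ceacam10 to Scara5 (0.14) and Sbp, near background, to Zc2hc1c (0.0064). Both lines were at the threshold for all 10 genes, so for a gene also at background there the distance rests on the normal arrays alone. For Sbp and Zc2hc1c it rests on normal 1. The normal readings of Tgm4, Msmb and Defb50 were also at or near the top of the scale, which limits how far apart such bright genes could lie. With 4 arrays these distances describe the readings only.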

How the data were processed

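RNA of 4 samples had been hybridised to Illumina bead arrays; the authors deposited normalized intensities on a linear scale, and per the submitters' processing notes BeadStudio was used, its version and the normalization method being not given in the sources used here. All 4 deposited columns held nearly the same sorted values (largest gap 3.73%), as after quantile normalization, which fixes the values of the highest ranks. A table before normalization has 8 columns of per-sample values that no label ties to a sample; these were not used.

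Intensities were taken to log2. The background threshold was the mode of all log2 values (6.12) plus the upper 0.01 quantile distance of a Gaussian whose SD was that left of the mode (0.247), giving 6.69, an intensity of 103; 15767 of 24613 probes exceeded it on at least 1 array and were tested. Of several probes of a gene, that with the highest mean was taken. Lines were compared with normal prostate by two-sided tests in limma 3.58.1 (R 4.3.3), adjusted by Benjamini-Hochberg over all probes tested at a threshold of 0.05, with 2 residual and 2.07 prior degrees of freedom; single lines had 1 residual and 2.95 prior degrees of freedom. The fit was tested on simulated data. The number of arrays limits the precision.

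The secretory genes and the lists were chosen with earlier results of these data known. Named genes were the 10 members, the nearest gene to each, and from each list or family the genes called and those with the largest fitted rise and fall that the text needs; 1 gene the rule names is not reported here. Plots were made in Python 3.11.15 with matplotlib 3.10.9.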

Additional observations from a re-analysis of the deposited data

How the results depend on the processing

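No paired analysis was possible because the 2 lines carry 1 replicate number only and share fewer than 2 numbers with the normal arrays. Over 14 alternatives, 13 for Sbp, every secretory gene kept a lower fitted value in the lines. All 10 genes were tested for their signal on a normal array, with both lines at background, so this direction was nearly fixed beforehand. Changing the filter on dim probes left each fitted difference as it was and could alter only its SE and adjusted p. The 8 calls held under all 4 scaling and offset alternatives, all 4 filters on dim probes and a trended prior variance. Leaving out either line gives the same values as the single-line fits described above, so it is no further check. With background values raised to the threshold 6 genes were called: Azgp1 (adjusted p = 0.053, between 0.0224 and 0.161 over its alternatives) and Ceacam10 (adjusted p = 0.0504, between 0.0209 and 0.18) then missed. Leaving out 1 array moved the count of secretory genes called between 0 and 8 and that of all probes between 0 and 4695, from 1698 with all arrays; both counts of 0 came without normal 1 or normal 2, which leaves 1 normal array, 1 residual degree of freedom and an assumption that it varies like the lines, and 9 secretory genes had an unadjusted p under 0.05 in each. Without T23 4695 probes were called and without T1525 4591. Without normal 1 and normal 2 the fitted log2 difference was -6.76 and -9.21 for Spink1 and -5.10 and -9.51 for Sbpl, which for both lines together passed under none of its alternatives (adjusted p between 0.059 and 0.161) but passed in each single line with a trended prior variance.

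Of the calls over all probes, 52.4% were higher in the lines, 36.3% with cyclic loess, and 36.4% with the median of probes above background on all arrays made equal, an alternative chosen after the data were seen; that scaling and cyclic loess moved the median difference over all probes from 0.19 to -0.05 and -0.02. Readings at background limit every fold of the secretory genes from below.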
